A study of Mus musculus with 6 samples.

Results

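The 44 genes described here encode proteins that carry a cell through mitosis: the cyclins and kinases of mitotic entry, the spindle checkpoint, the kinetochore, the motors of the spindle, the machinery of cytokinesis and the condensins. They were picked by gene name from a list of mitotic functions, with earlier results of these data known. All 44 were found as single rows of a deposited gene table of 37757 rows. The authors tested 14748 of those rows, the 44 mitosis genes among them. The cells were kidney epithelial cells taken from C57/Bl6J mice of 8 weeks with a genotype labelled Bim-/- Bmf-/-. Bim and Bmf are BH3-only proteins, which trigger apoptosis through the mitochondria. Both groups carried that genotype: 3 libraries came from cells left attached to the dish, and 3 from cells kept in suspension for 4 h, titled anoikis after the death that follows loss of anchorage. No group with intact Bim and Bmf enters the comparison. The comparison addresses how transcripts respond to loss of attachment in cells of this genotype. The labels call the libraries independent but do not say whether they were separate cultures or separate animals, so the deposited p-values may measure technical spread.

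A cell enters mitosis when cyclin-dependent kinase 1, bound to cyclin A or cyclin B, escapes inhibitory phosphorylation. Condensins then compact the chromosomes, kinetochores tie them to spindle microtubules, and the spindle checkpoint holds the anaphase-promoting complex in check until every chromosome is attached. Most of these genes are transcribed mainly in G2 and mitosis, through promoter elements read by the DREAM and MuvB complexes, so their messages are abundant in dividing cultures and low in resting kidney tubules.

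Expression is given as FPKM, a fragment count divided by transcript length and by the size of the library, with 1 value per condition in the authors' deposited table. The table names its columns BBCA and BBCS, and the final letters were read here as attached and suspended, so every direction below rests on that reading. Because FPKM is per length, levels of different genes can be set side by side, but no spread between libraries can be given and the depth is unknown. A gene is called here when its q, the authors' p-value corrected for multiple testing, is below 0.05. Bcl2l11, which encodes Bim, stood at 9.53 FPKM attached and 51.4 suspended, and Bmf at 2.95 and 4.30 FPKM (q = 0.287; authors' deposited table). A value for the whole gene cannot show which exons were removed, so this checks nothing about the genotype. All 9 kidney tubule epithelial markers reached 1 FPKM, and their sums were 2727 FPKM attached and 2571 suspended, with 5 called lower and 3 higher (authors' deposited table). Within that list genes changed in both directions: Pax2 had 150 FPKM attached and 30.9 suspended, Pax8 104 and 37.1, Cdh1 95.4 and 201, and Krt8 606 and 752 (q = 0.0115 for Krt8; authors' deposited table). Fibroblast markers summed to 0.225 and 1.99 FPKM over 8 genes, with Pdgfra, the 1 tested, called higher (0.155 and 1.81 FPKM; authors' deposited table). Of the 8, Col3a1 and Lum are named because they were at 0 in both conditions, and the rest were not (authors' deposited table). Leukocyte markers summed to 25.3 and 50.9 FPKM over 6 genes, and all 3 tested were called higher: Ptprc (1.42 and 12.4 FPKM), Cd74 (0.328 and 3.46 FPKM) and Cd68 (23.4 and 34.9 FPKM), which made up most of the sum (authors' deposited table). Podocyte markers summed to 2.53 and 12.7 FPKM over 3 genes, with Synpo, the 1 tested, called higher (2.53 and 12.6 FPKM), and endothelial markers to 0.353 and 0.298 FPKM over 4 genes with 0 tested (authors' deposited table). Mitochondrial rows, looked at as a sign of RNA quality, summed to 31198 FPKM attached and 68368 suspended, 2.19 times as much, and the nuclear RNAs Malat1 and Neat1 had 79.2 and 69.6 FPKM and 295 and 468 FPKM (authors' deposited table). The part of these shifts in the values of the mitosis genes was not tested.

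Mitosis transcripts were mostly lower after 4 h in suspension, by moderate amounts. Of the 44 genes, 26 were called lower, 3 were called higher and 15 were not called at q below 0.05 in the authors' deposited table. Among all tested rows 51.0% were called, 26.3% lower and 24.7% higher. The 59.1% of mitosis genes called lower lay above that background and the 6.82% called higher lay below it. The genes were chosen with earlier results of these data known, so this comparison is a description and not a test. Among the 8623 tested rows within the mean FPKM range of the mitosis genes, 32.7% were called lower and 23.5% higher. The median log2 fold change of the 44 genes was -0.58, against -0.04 over all tested rows and -0.11 over the 11677 tested rows of at least 1 FPKM in both conditions (authors' deposited table). Relative to that last median, the 44 genes had a median of -0.47. The sign of 3 genes, Ncapd2, Incenp and Tpx2, turns from negative to positive when that shift is taken off, and none of the 3 was called. No called gene changes sign. The summed FPKM of the 44 genes were 1009 attached and 772 suspended, a difference of -23.6% (authors' deposited table). In bulk RNA a smaller share of dividing cells and less of each message per dividing cell cannot be told apart.

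**Figure D1:**
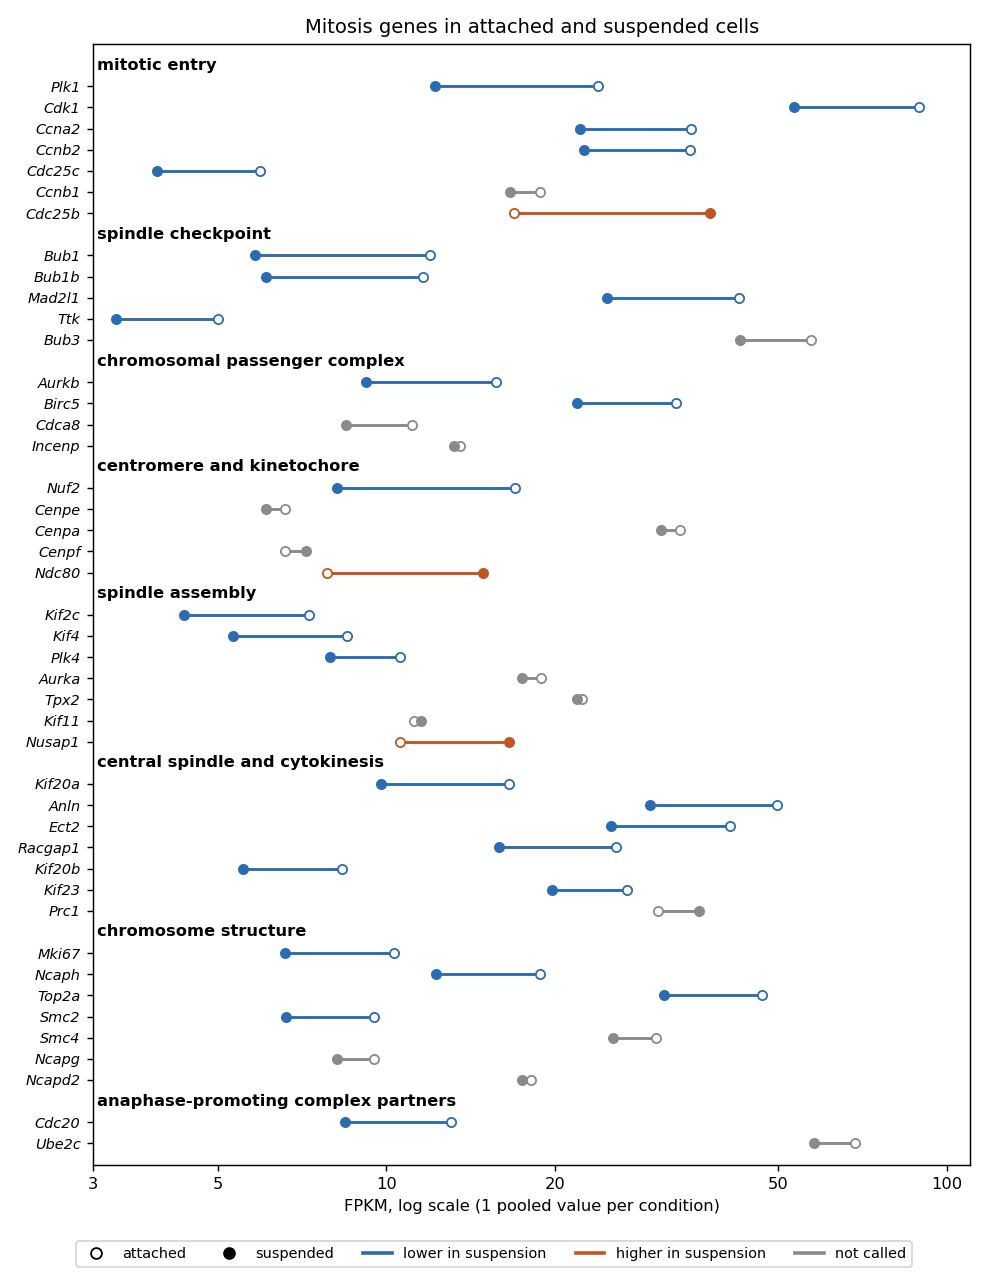
FPKM of the 44 mitosis genes on a log axis, grouped by role, with open circles for attached cells, filled circles for suspended cells and 1 pooled value per condition; line colour gives the call at q below 0.05. Most lines run to the left in suspension, while Cdc25b, Ndc80 and Nusap1 run to the right.

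Most falls were smaller than 2-fold. The 26 genes called lower were reduced to between 0.48 and 0.75 of their attached level, and their log2 fold changes ran from -1.05 to -0.41 with a median of -0.67 (authors' deposited table). The call itself removes small falls, so the upper end of that range does not describe the class. Over all 38 genes with a negative log2 fold change, values ran from -1.05 to -0.03 (authors' deposited table). A 2-fold fall was reached by Nuf2 and Bub1 only, 2 of the 44 genes, where 7.12% of all tested rows were called lower by at least that much. Of the 3 genes called higher, only Cdc25b passed 2-fold, as did 12.4% of all tested rows in that direction. The smallest change called was that of Plk4 (log2 -0.41), and the largest not called was that of Bub3 (log2 -0.42; authors' deposited table). The lowest q found among the tested rows was 0.000185, and it holds for each called gene below that is printed with no q of its own.

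**Figure D2:**
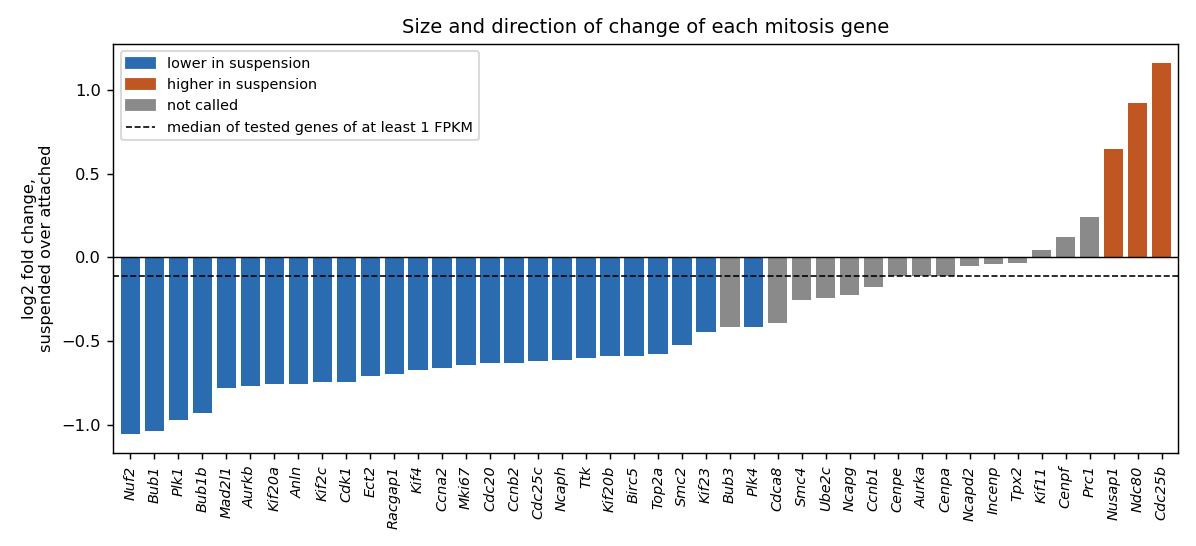
Log2 fold change, suspended over attached, of each mitosis gene in order of size, coloured by call at q below 0.05; the dashed line is the median of tested rows of at least 1 FPKM in both conditions, -0.11. The bars run from Nuf2 at -1.05 to Cdc25b at 1.16, and the grey bars of genes that were not called lie between -0.42 and 0.24.

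Promoter sequences were looked up because genes of this class are known to share 2 elements, the cell cycle genes homology region (CHR, searched as TTTGAA or TTCGAA) and the CCAAT box bound by NF-Y (searched as CCAAT), on both strands. RefSeq windows from 250 bases before to 50 bases after an annotated start (GRCm38.p6) were found for 37 of the 44 genes, 40 windows in all. The 6 genes with the largest called changes among those with a window were chosen for display, first the 4 called lower. The capitals mark CHR and CCAAT matches, which read TTCAAA and ATTGG where they lie on the other strand. The windows, 5′ to 3′ in the direction of the gene, lie at chr1:169531415-169531714 for Nuf2 (minus strand), chr2:127831810-127832109 for Bub1 (minus), chr7:122159185-122159484 for Plk1 (plus) and chr2:118597961-118598260 for Bub1b (plus strand).
Nuf2: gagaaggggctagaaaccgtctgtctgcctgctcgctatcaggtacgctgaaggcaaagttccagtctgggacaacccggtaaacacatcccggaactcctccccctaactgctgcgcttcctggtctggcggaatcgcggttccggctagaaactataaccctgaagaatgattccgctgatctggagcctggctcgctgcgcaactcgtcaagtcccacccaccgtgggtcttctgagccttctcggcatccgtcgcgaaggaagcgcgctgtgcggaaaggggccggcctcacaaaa
Bub1: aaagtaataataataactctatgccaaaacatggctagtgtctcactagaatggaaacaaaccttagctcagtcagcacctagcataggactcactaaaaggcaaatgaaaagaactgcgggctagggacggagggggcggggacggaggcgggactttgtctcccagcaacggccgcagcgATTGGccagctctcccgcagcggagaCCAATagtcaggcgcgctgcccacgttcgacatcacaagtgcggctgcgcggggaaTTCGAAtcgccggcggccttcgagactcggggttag
Plk1: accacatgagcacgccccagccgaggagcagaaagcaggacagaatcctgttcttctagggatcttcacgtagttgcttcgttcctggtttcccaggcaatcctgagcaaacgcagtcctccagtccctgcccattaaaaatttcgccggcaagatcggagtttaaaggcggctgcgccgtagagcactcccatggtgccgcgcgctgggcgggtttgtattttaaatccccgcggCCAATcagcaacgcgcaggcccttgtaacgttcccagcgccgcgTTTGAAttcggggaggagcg
Bub1b: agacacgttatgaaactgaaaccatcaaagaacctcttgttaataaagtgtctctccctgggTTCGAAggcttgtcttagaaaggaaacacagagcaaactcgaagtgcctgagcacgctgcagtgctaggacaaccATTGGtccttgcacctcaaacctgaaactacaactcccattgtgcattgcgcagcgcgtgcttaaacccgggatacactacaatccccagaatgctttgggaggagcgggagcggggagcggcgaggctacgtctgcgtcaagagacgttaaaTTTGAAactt

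Those of Ndc80 (chr17:71526808-71527107, minus strand) and Cdc25b (chr2:131186698-131186997, plus strand), both called higher, read as follows with the same marking.
Ndc80: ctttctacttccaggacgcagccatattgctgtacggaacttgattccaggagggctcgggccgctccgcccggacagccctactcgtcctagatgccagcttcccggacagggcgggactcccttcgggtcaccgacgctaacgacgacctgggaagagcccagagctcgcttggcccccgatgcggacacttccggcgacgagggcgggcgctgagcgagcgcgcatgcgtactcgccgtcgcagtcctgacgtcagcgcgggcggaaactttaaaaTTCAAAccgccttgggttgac
Cdc25b: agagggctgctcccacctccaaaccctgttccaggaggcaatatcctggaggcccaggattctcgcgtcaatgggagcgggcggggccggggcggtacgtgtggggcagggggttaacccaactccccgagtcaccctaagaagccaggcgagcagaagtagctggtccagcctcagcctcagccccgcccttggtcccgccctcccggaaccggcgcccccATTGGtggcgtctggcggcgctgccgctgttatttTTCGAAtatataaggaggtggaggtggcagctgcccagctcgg

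The Bub1 window held a CHR starting 14 bases after the start and CCAAT boxes 68 and 42 bases before it. In Plk1 the CHR lay 30 bases after and the CCAAT box 14 bases before the start, and in Bub1b the CHR matches lay 188 bases before and 40 bases after it, with a CCAAT box 113 bases before. The Cdc25b window had a CHR 7 bases after and a CCAAT box 28 bases before the start, and that of Ndc80 a CHR 29 bases after it. The window of Nuf2 held neither set of letters. A CHR match was found in 80.0% of the 40 member windows and in 19.2% of all 32851 windows, and a CCAAT box in 75.0% and 37.4%. Both were present in 70.0% of member windows and 7.52% of all windows. Members called lower had both in 15 of 23 windows, members not called in 12 of 14, and members called higher in 1 of 3. The letters were thus common in this class and were at least as frequent in windows of genes that were not called as in windows of genes called lower. These are matches of letters and not measured binding, and a difference between the call classes was not tested.

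**Figure D3:**
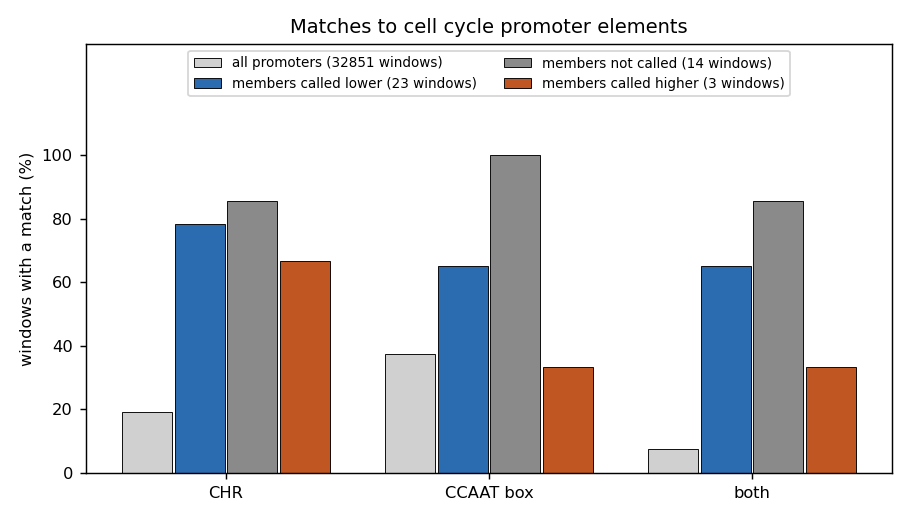
Share of promoter windows (%) with a CHR match, a CCAAT box or both, in all RefSeq windows and in windows of mitosis genes called lower, not called and called higher. Windows with both make up 7.52% of all windows, 65.2% of those of genes called lower and 85.7% of those of genes that were not called.

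Among the regulators of mitotic entry, 5 of 7 genes were called lower (71.4%), Cdc25b was called higher and Ccnb1 was not called. For this and each role below, the shares of all tested rows were 26.3% lower and 24.7% higher. The roles hold few genes, and no difference of a role from all rows was tested. Cdk1, the kinase that drives entry, was the most abundant of the 44 messages in attached cells, with 89.0 FPKM attached and 53.3 suspended in the authors' deposited table (GRCm38 chromosome 10, 69335146 to 69352938). It fell by 40.2%. Plk1, the polo-like kinase that activates the Cdk1 switch, fell by 48.8%, from 23.8 to 12.2 FPKM (chromosome 7, 122159439 to 122169873; authors' deposited table). The cyclin partners of Cdk1 were not all called. Ccna2, cyclin A2, which binds Cdk1 before cyclin B does, was lower, with 35.0 FPKM attached and 22.2 suspended (authors' deposited table). Ccnb2, cyclin B2, had nearly the same levels, 34.8 and 22.5 FPKM, and was lower too (authors' deposited table). Ccnb1, cyclin B1, the main mitotic cyclin, stood at 18.8 and 16.6 FPKM with q = 0.292 (authors' deposited table). Near-identical copies of Ccnb1 in the mouse genome could take some of its reads, which was not tested.

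The Cdc25 phosphatases remove the inhibitory phosphates from Cdk1. Cdc25c was lower, at 5.96 FPKM attached and 3.89 suspended (q = 0.00128; authors' deposited table). Cdc25b went the other way and had the largest rise of the 44 genes, with 16.9 FPKM attached and 37.8 suspended (authors' deposited table). Cdc25b was thus 2.24-fold higher in suspension, and the ratio of Cdc25b to Cdc25c went from 2.83 to 9.72. In order of level, Cdc25b was number 23 of the 44 genes in attached cells and number 4 in suspended cells. The gene lies on chromosome 2 (131186949 to 131198497) and shares 92 exonic bases with Spef1 on the other strand, which had 2.05 and 1.75 FPKM (q = 0.854; authors' deposited table). The deposited position of Cdc25b is shared with 4 other rows, among them Spef1. Of these, 1700037H04Rik was called higher (33.9 and 54.1 FPKM, q = 0.0293) and Cenpb was not called (53.4 and 51.3 FPKM, q = 0.766; authors' deposited table). Both were singled out after their values were seen. The part of these rows in the Cdc25b value was not tested. No source used here states whether strand was counted, so reads from bases shared with Spef1 could belong to either gene.

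The spindle checkpoint had the lowest median of the 8 roles, log2 -0.78, and 4 of its 5 genes were called lower (80.0%; 26.3% of all tested rows). Bub1, a checkpoint kinase at the kinetochore (chromosome 2, 127801122 to 127831865), had 12.0 FPKM attached and 5.83 suspended (authors' deposited table). Bub1b, which encodes BubR1 of the mitotic checkpoint complex (chromosome 2, 118598211 to 118641591), had 11.6 and 6.09 FPKM (authors' deposited table). Mad2l1, the Mad2 protein that binds and blocks Cdc20, was lower at 42.4 and 24.8 FPKM (authors' deposited table). Ttk, the Mps1 kinase that starts the checkpoint signal, was the least abundant of the 44 in both conditions, with 5.0 and 3.30 FPKM (q = 0.000518; authors' deposited table). Bub3, the partner of both Bub proteins, had 57.1 and 42.8 FPKM (q = 0.469; authors' deposited table). Its deposited position is shared with 40 other rows, while those of the other checkpoint genes are shared with none.

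Cdc20, the activator of the anaphase-promoting complex that the checkpoint restrains, was lower, with 13.0 FPKM attached and 8.43 suspended (q = 0.0213; authors' deposited table). Its exons share 53 bases with those of Elovl1 on the other strand, itself called lower (40.7 and 25.1 FPKM; authors' deposited table), so the Cdc20 call is uncertain if strand was not counted. Ube2c, the ubiquitin-conjugating enzyme of the same complex, was the most abundant of the 44 messages in suspended cells, at 68.5 and 57.8 FPKM with q = 0.0833 (authors' deposited table).

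The chromosomal passenger complex corrects wrong attachments between kinetochores and microtubules. Of its 4 subunits, 2 were called lower and 2 were not called. The kinase Aurkb had 15.6 FPKM attached and 9.21 suspended (q = 0.00171; authors' deposited table). Birc5, survivin, which brings the complex to the centromere, had 32.9 and 21.9 FPKM (authors' deposited table). Cdca8, borealin, missed the threshold narrowly, at 11.1 and 8.45 FPKM with q = 0.0519 (authors' deposited table). Incenp, the scaffold that activates the kinase, had 13.5 and 13.2 FPKM, a difference far from the threshold (q = 0.817; authors' deposited table). The ratio of Incenp to Aurkb messages went from 0.865 to 1.43. Other partner ratios that were computed shifted less than this one and those of Cdc25b to Cdc25c, Ndc80 to Nuf2 and Prc1 to Kif4. Ccnb1 to Ccnb2 went from 0.540 to 0.739 and Kif23 to Racgap1 from 1.05 to 1.25. Smc2 to Smc4 went from 0.314 to 0.261 and Aurka to Tpx2 from 0.845 to 0.799.

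Centromere and kinetochore genes went in both directions. Nuf2, a subunit of the NDC80 complex that grips spindle microtubules, had the largest fall of the 44 genes and fell by 51.8%, from 17.0 to 8.18 FPKM (chromosome 1, 169497934 to 169531464; authors' deposited table). Ndc80, which encodes the subunit that pairs with Nuf2, was higher, with 7.84 FPKM attached and 14.8 suspended, a 1.89-fold rise (chromosome 17, 71496100 to 71526857; authors' deposited table). The Ndc80 to Nuf2 ratio went from 0.462 to 1.81, so the order of the partners was reversed. The remaining subunits, Spc24 from the list of other kinetochore genes and Spc25, named after its values were seen, differed as well. Spc24 was lower (8.41 and 4.03 FPKM), and Spc25 stood at 19.3 and 20.4 FPKM with q = 0.631 (authors' deposited table). Neither Ndc80 nor Nuf2 shares exonic bases with another annotated gene. The row of Ndc80 does share its deposited position with that of Gm23115, listed at 0 FPKM attached and 82.0 suspended and not tested (authors' deposited table). Gm23115 was singled out after its values were seen, and its part in the Ndc80 value was not tested. The difference between subunits was not tested, since no values per library enter here.

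**Figure D4:**
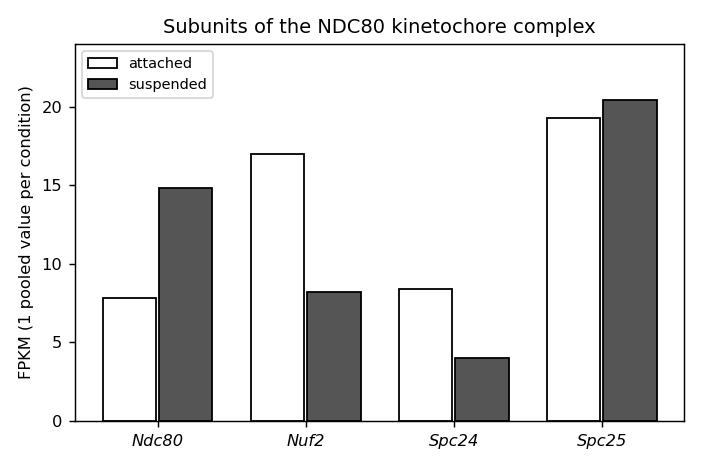
FPKM of the 4 subunits of the NDC80 complex in attached (white) and suspended (grey) cells, 1 pooled value per condition. Ndc80 stood below Nuf2 in attached cells (7.84 and 17.0 FPKM) and above it in suspended cells (14.8 and 8.18 FPKM).

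The other centromere genes were not called. Cenpa, the histone variant that marks the centromere, had 33.4 FPKM attached and 30.9 suspended (q = 0.516; authors' deposited table). Cenpe, a kinetochore kinesin, had 6.59 and 6.09 FPKM (q = 0.432; authors' deposited table). Cenpf, a large protein of the outer kinetochore, had 6.60 and 7.18 FPKM (q = 0.788; authors' deposited table).

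Spindle assembly genes were divided, with 3 of 7 called lower, Nusap1 called higher and 3 not called. Kif2c, a kinesin that takes microtubules apart, was lower, with 7.28 FPKM attached and 4.35 suspended (authors' deposited table). The chromosome-bound kinesin Kif4 had 8.50 and 5.34 FPKM (q = 0.00227; authors' deposited table). Plk4, the kinase that starts centriole duplication, had the smallest called fall and fell by 24.9%, from 10.6 to 7.92 FPKM (q = 0.00757; authors' deposited table). Nusap1, which bundles microtubules near chromosomes, rose 1.57-fold, with 10.6 FPKM attached and 16.6 suspended (authors' deposited table). It shares 172 exonic bases with Oip5 on the other strand, which had 12.3 and 11.8 FPKM (q = 0.885; authors' deposited table). Aurka, the centrosome kinase, and its activator Tpx2 were not called. Aurka stood at 18.9 and 17.5 FPKM (q = 0.490; authors' deposited table). Tpx2 stood at 22.4 and 21.8 FPKM (q = 0.834; authors' deposited table). Kif11, the motor that pushes spindle poles apart, had 11.2 and 11.5 FPKM (q = 0.783; authors' deposited table).

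In the group for the central spindle and cytokinesis, 6 of 7 genes were called lower (85.7%; 26.3% of all tested rows). Anln, anillin, the scaffold of the cleavage furrow, was the most abundant of them in attached cells, with 49.7 FPKM attached and 29.5 suspended (authors' deposited table). Ect2, the exchange factor that activates RhoA at the furrow, had 41.0 and 25.1 FPKM (authors' deposited table). Racgap1, which recruits it, had 25.7 and 15.8 FPKM (authors' deposited table). All 3 act at the cleavage furrow. Kif23, the motor that forms the centralspindlin complex with Racgap1, fell by 26.6%, from 26.9 to 19.7 FPKM (authors' deposited table). The related kinesins Kif20a (16.5 and 9.78 FPKM) and Kif20b (8.33 and 5.55 FPKM) were lower too (authors' deposited table). Kif20a shares 1271 exonic bases with Cdc23 on the other strand, which was not called (17.3 and 15.9 FPKM, q = 0.563; authors' deposited table). Prc1, which crosslinks the microtubules of the central spindle, stood apart with 30.5 FPKM attached and 36.1 suspended (q = 0.123; authors' deposited table). The ratio of Prc1 to Kif4, its motor partner, went from 3.59 to 6.76, and both share exonic bases with a gene on the other strand.

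Of the genes for chromosome structure, 4 of 7 were called lower (57.1%; 26.3% of all tested rows) and 3 were not called. Top2a, the topoisomerase that untangles sister chromatids, had 46.8 FPKM attached and 31.3 suspended (q = 0.00171; authors' deposited table). Mki67, the Ki-67 proliferation marker that coats mitotic chromosomes, had 10.3 and 6.60 FPKM (authors' deposited table). Of the 5 condensin subunits 2 were called, where 51.0% of all tested rows were called. Smc2, a core ATPase, was lower at 9.50 and 6.62 FPKM (authors' deposited table). Ncaph, which closes the condensin I ring, was lower at 18.7 and 12.3 FPKM (authors' deposited table). The others missed the threshold, and all had lower values in suspension. Smc4, the partner of Smc2, stood at 30.2 and 25.3 FPKM (q = 0.158; authors' deposited table). The regulatory subunit Ncapg stood at 9.51 and 8.15 FPKM (q = 0.393) and its neighbour in the complex Ncapd2 at 18.1 and 17.4 FPKM (q = 0.735; authors' deposited table).

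The order of levels among the 44 genes was largely kept between conditions, with a Spearman rho of 0.89 across genes that come from the same pooled libraries. The log2 fold change, taken with its sign, showed little relation to the mean level (rho 0.03) or to the exonic length (rho 0.13) across the 44 genes. The genes lie on 16 chromosomes, 8 of them on chromosome 2. In 14 of the 44 genes exonic bases are shared with another annotated gene, among them 7 of those called lower and, of those called higher, Cdc25b and Nusap1. Kif4 shares 832 bases with Pdzd11 on the other strand (23.5 and 25.8 FPKM) and Ccna2 510 with Exosc9 (32.0 and 29.8 FPKM; authors' deposited table). Cdc25c shares 623 with Gm3550, which has no tested row. Among genes not called, Prc1 shares 911 with Rccd1 (3.49 and 2.10 FPKM) and Ncapg 944 with Lcorl (8.43 and 8.92 FPKM; authors' deposited table). The deposited position is shared with at least 1 other row for 9 of the 26 genes called lower, 8 of the 15 not called and all 3 called higher. The part of this sharing in the calls was not tested.

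In the wider mitotic machinery lower calls also outnumbered higher ones. Of 128 tested genes in 6 other lists, 54 were called lower (42.2%) and 13 higher (10.2%), with a median log2 fold change of -0.22 (authors' deposited table). Among all tested rows 26.3% were called lower and 24.7% higher. Lower calls made up 9 of 15 other entry genes, 15 of 36 kinetochore genes, 13 of 30 spindle and centrosome genes, 3 of 13 cytokinesis genes, 8 of 17 condensin and cohesin genes and 6 of 17 genes of the anaphase-promoting complex. The cytokinesis share, 23.1%, lay below that of all tested rows, and that of the anaphase-promoting complex was 35.3%. Among tested rows of at least 1 FPKM in both conditions, 30.9% were called lower. Whether the shares of these lists differ from that of the 44 genes was not tested.

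**Figure D5:**
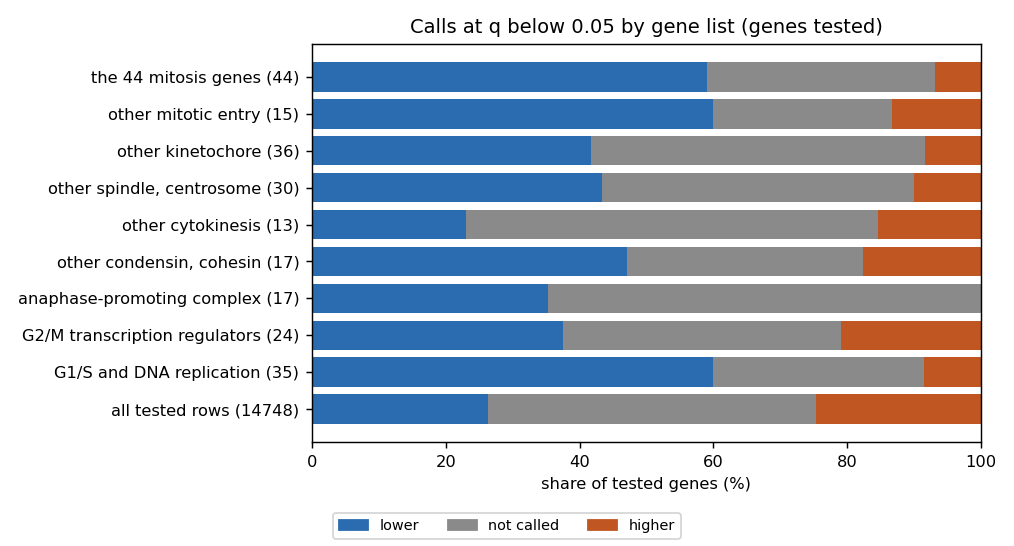
Share of tested genes (%) called lower, not called and called higher in suspension at q below 0.05 for the 44 mitosis genes, for other mitosis, regulator and replication lists, and for all tested rows; the number tested stands in brackets. The share called lower is 59.1% for the 44 genes, 60.0% for the replication list and 26.3% for all tested rows.

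Among the other entry genes, those with the largest falls were the phosphatase Cdc25a, with 14.7 FPKM attached and 4.32 suspended, and Bora, the activator of Aurka and Plk1, with 6.01 and 2.10 FPKM (authors' deposited table). The 2 called higher were Wee1, the kinase that places the inhibitory phosphate on Cdk1 (7.19 and 15.4 FPKM), and Mastl, the Greatwall kinase that restrains the opposing phosphatase (7.74 and 16.3 FPKM), in the authors' deposited table. All 3 Cdc25 genes therefore differed between conditions, Cdc25a and Cdc25c lower and Cdc25b higher.

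At the kinetochore Kntc1, a subunit of the complex that brings dynein there, was lower (6.19 and 3.35 FPKM) beside Spc24, while Zwint (147 and 234 FPKM) and the Cenpa chaperone Hjurp (26.5 and 37.0 FPKM, q = 0.00199) were higher (authors' deposited table). On the spindle, Tubg1, the gamma-tubulin that nucleates microtubules, was lower (20.6 and 6.88 FPKM), as was the chromosome-bound kinesin Kif22 (14.7 and 6.85 FPKM), in the authors' deposited table. Haus2, of the augmin complex (13.8 and 20.4 FPKM), and Psrc1 (42.9 and 58.1 FPKM, q = 0.00463) were higher (authors' deposited table). In cytokinesis the abscission factor Cep55 (13.6 and 7.0 FPKM) and the kinesin Kif14 (1.69 and 0.941 FPKM) were lower, and Sept9 (43.4 and 76.5 FPKM, q = 0.000982) and Vps4b (51.3 and 78.0 FPKM) were higher (authors' deposited table).

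Genes for sister chromatid cohesion were split. The cohesin regulators Pds5a (35.5 and 18.9 FPKM) and Pds5b (9.41 and 5.19 FPKM) were lower (authors' deposited table). Esco2, which acetylates cohesin, was higher at 7.29 and 17.2 FPKM, and so was Pttg1, securin, the inhibitor of separase, at 25.8 and 43.1 FPKM (authors' deposited table). In the anaphase-promoting complex list the ubiquitin-conjugating enzyme Ube2s (193 and 88.5 FPKM) and the subunit Cdc16 (32.2 and 20.8 FPKM) were lower in the authors' deposited table, and no gene of that list was called higher.

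Regulators of G2 and mitotic transcription had 9 of 24 genes called lower (37.5%) and 5 higher (20.8%), with a median log2 fold change of -0.27 (authors' deposited table). Of all tested rows, 26.3% were called lower and 24.7% higher, and of those of at least 1 FPKM in both conditions 30.9% and 22.5%. The E2F partner Tfdp1 (69.9 and 30.0 FPKM) and the repressor E2f8 (11.8 and 5.34 FPKM) were lower (authors' deposited table). Nfyb, a subunit of the factor that binds the CCAAT box, was higher at 29.7 and 63.8 FPKM, and the cyclin-dependent kinase inhibitor Cdkn1a at 165 and 368 FPKM (authors' deposited table). Foxm1, the activator of many of the 44 genes, appears in a row merged with 1 other gene, named after its values were seen. That merged row was lower, with 17.3 FPKM attached and 8.93 suspended (authors' deposited table).

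Genes of G1/S and DNA replication were given beside the mitosis genes because they mark the preceding cell cycle phases. Of 35 tested, 21 were called lower and 3 higher, 60.0% and 8.57%, with a median log2 fold change of -0.62 (authors' deposited table). The shares of all tested rows were 26.3% and 24.7%. The falls of their leading genes were larger in size than that of Nuf2: the cyclin Ccne1 had 13.9 FPKM attached and 3.83 suspended, and the thymidine kinase Tk1 53.6 and 15.9 FPKM (authors' deposited table). Gmnn, geminin, the inhibitor of licensing, was higher (23.7 and 38.7 FPKM), as was the histone chaperone subunit Chaf1b (10.7 and 15.3 FPKM, q = 0.00514; authors' deposited table). Whether the lists differ from each other was not tested.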

How the data were processed

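Messenger RNA of 3 libraries of attached and 3 of suspended cells was sequenced on an Illumina instrument, per the labels' protocols. TopHat, Bowtie, Cufflinks 1.0.3, Cuffdiff and the build mm10 are named in the submitters' processing notes, while nothing on settings, annotation or strand use is given in the sources used here. The authors deposited FPKM, 1 pooled value for each condition, beside a log2 fold change, a p-value and a q-value, per the file headers. The headers name the conditions BBCA and BBCS only; A and S were read as attached and suspended, and the fold change as suspended over attached. Deposited p-values stop at 5e-05.

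The members and gene lists were chosen with earlier results of these data known. Every member is named. From the other lists the text names, per list and direction, the 2 called genes with the largest change and at least 1 FPKM in the higher condition, and genes named after their values were seen are given as such. Marker genes listed at 0 and Cd68 are named beside their lists outside this rule, after their values were seen. Of 226 other listed genes, 203 were tested. Rows were matched by name or RefSeq synonym, and exon overlaps and positions came from GENCODE M21 (GRCm38). No test was run here; Cuffdiff's q below 0.05 is the call. The calculations were tested on simulated data. Work was done in Python 3.11.15 with pandas 2.3.3, NumPy 2.4.6, matplotlib 3.10.9 and SciPy 1.17.1. Alternatives covered the threshold, a minimum fold, the adjustment, low values, overlapping genes, the pseudocount and scaling.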

Additional observations from a re-analysis of the deposited data

How the results depend on the processing

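The 26 lower and 3 higher calls among the mitosis genes stayed within 1.5 times of these counts at q below 0.01 or 0.1, with a 1.5-fold minimum, with a recomputed Benjamini-Hochberg adjustment and with minimums of 1 and 5 FPKM. With a 2-fold change required, 2 lower and 1 higher remained, since most falls were smaller. With Bonferroni, 0 were called in either direction because the smallest deposited Cuffdiff p times the rows tested is 0.737, so no row could pass; at an unadjusted p below 0.05 there were 28 lower and 3 higher. Without genes that share exonic bases, 19 were lower and 1 higher, Ndc80. With a 2-fold change required, the other mitosis genes had 7 lower and 3 higher, and the replication genes 7 lower and 0 higher (3 higher at an unadjusted Cuffdiff p below 0.05). The median log2 fold change of -0.58 ranged from -0.58 to -0.47 under the pseudocounts, scalings and filter tried. Depth is unknown, so the precision of single values cannot be given. Leaving out each library was not run, since the table holds no values per library. No paired analysis was possible because the values are pooled over the libraries of a condition.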
